A study of Mus musculus with 36 samples.

Results

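The effect of time-restricted feeding in inguinal white fat (iWAT, which lies under the skin) was set against its effect in liver, gene by gene. The quantity is the log2 fold change of time-restricted (TR) over ad libitum (AL) mice in iWAT minus the same log2 fold change in liver. It is above 0 where a gene went further up, or less far down, in iWAT than in liver. All 12201 genes present in both of the authors' deposited TR tables (15356 genes for iWAT, 12691 for liver) were included, of 16021 genes in the gene tables read. 2 classes were kept apart: 459 genes whose liver level was 16 or more times the iWAT level, and 14 genes of striated muscle. This leaves 11728 genes.

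The mice were C57BL/6J and had spent 16 weeks on their diet, and no allele or agent is named for any group. AL mice are the controls, TR mice had restricted feeding times without calorie restriction, and calorie-restricted (CR) mice appear here only beside TR. The series asks whether fasting without fewer calories gives the response of CR. Each of the 4 groups compared (AL and TR, iWAT and liver) holds 6 libraries, 24 of the series' 36. By the animal numbers in the labels these come from 14 mice, of which 10 (5 AL and 5 TR) give both tissues. Animal number 24, however, labels a TR liver library and also CR libraries of both tissues. Both counts of mice treat that TR liver library as coming from a separate mouse, which the labels alone do not settle. The sources used here do not give sex, age or the time of sampling after the last meal, so an effect of the last meal cannot be told apart from that of the diet.

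The deposited tables hold group comparisons, not libraries. Values per library, their spread and the depth per library are therefore unknown, and how many mice show a direction cannot be given. The standard error (SE) of each log2 fold change was derived from the authors' likelihood-ratio statistic. Its median outside the classes kept apart was 0.33 in iWAT and 0.15 in liver, and that of the difference was 0.37, so the precision of a difference was set mainly by iWAT. Group levels are approximate CPM (reads scaled to library size), derived from the mean level and the fold change in the authors' deposited tables. The tissues stand in separate tables whose scaling the sources used here do not state, which bears on every level set across them. Defining markers of both tissues were present under their labels. Albumin (Alb) stood at 75001 CPM in AL liver and 675 CPM in AL iWAT, and adiponectin (Adipoq) had a log2 mean CPM of 11.53 in the authors' deposited iWAT table and no row in that of liver. In bulk tissue, fewer cells of a type and less RNA per cell cannot be told apart. A gene is said to have risen or fallen in a tissue where the FDR in the authors' deposited table was under 0.05. A difference is called where its own adjusted p, from an approximate 2-sided test over all 12201 genes that assumes no correlation between the tissues of a mouse, was under 0.05.

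White adipocytes and hepatocytes both make fatty acids from glucose after a meal, and hepatocytes also make much of the body's cholesterol. SREBP1 drives genes of fatty acid synthesis, and SREBP2 drives genes of cholesterol synthesis and of LDL uptake when sterol in the endoplasmic reticulum is low. PPARalpha drives fatty acid oxidation in the fasted liver, while adipocytes store triglyceride when fed and release it when fasted.

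The difference was above 0 for 508 genes (4.16% of all tested) and below 0 for 445 (3.65%). The median over all 12201 genes was -0.01. Within iWAT, 731 genes had risen (4.76%) and 804 had fallen (5.24%) in the authors' deposited table. Within liver, 1186 had risen (9.35%) and 1211 had fallen (9.54%) in the authors' deposited table. Outside the classes kept apart, 61 genes rose in iWAT and fell in liver, and the difference was called for all 61. In the other direction, 32 genes fell in iWAT and rose in liver, again all 32 called. Opposite changes add up in the difference, so the calls in both of these groups were largely set by how the genes were chosen. A further 129 genes rose in both tissues, with a called difference for 28, and 74 fell in both, with a called difference for 5.

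A change past the authors' threshold in only 1 tissue often came without a called difference between tissues. Of 1785 genes outside the classes kept apart that passed in liver alone, the difference was called for 242 (13.6%). Of 854 such genes that passed in iWAT alone it was called for 504 (59.0%). The median SE was 0.15 in liver, 0.33 in iWAT and 0.37 for the difference. Smaller changes could thus pass in liver than could be called as a difference, and an uncalled difference does not show an equal change.

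**Figure D1:**
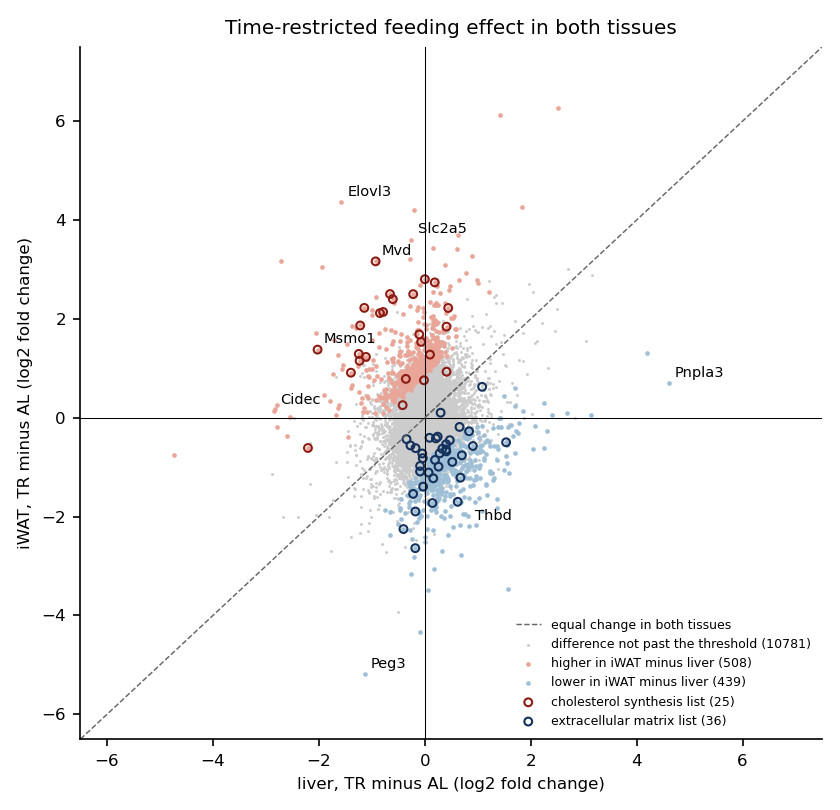
Log2 fold change of TR over AL in liver (horizontal axis) and in iWAT (vertical axis), 1 point for each of the 11728 genes outside the classes kept apart, from the authors' deposited tables. Colours mark the 508 higher and 439 lower differences and circles mark 2 gene lists. All 25 cholesterol synthesis genes, 2 of them from the classes kept apart, lie above the dashed line of equal change, and all 36 extracellular matrix genes lie below it.

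The cholesterol synthesis genes moved together and had the highest median of the 33 gene lists, so the DNA before the start of some of them is shown first. RefSeq promoter sequences (GRCm38.p6) matched 17 of the 25 genes on the list, in 20 windows of 250 bases before a start. The windows of Mvd, Hmgcs1 and Nsdhl are printed as examples that lie wholly outside their gene in GENCODE M21. Of the 20 windows, only that of Hmgcs1 holds a match to the sterol regulatory element core searched for. The printed windows read 5′ to 3′ on the gene's strand, with matches on either strand in capitals. The motifs are CCAAT (the core bound by NF-Y, a frequent partner of SREBPs) and TCACNCCAC (a sterol regulatory element core).
Mvd, chr8:122443423-122443672, minus strand: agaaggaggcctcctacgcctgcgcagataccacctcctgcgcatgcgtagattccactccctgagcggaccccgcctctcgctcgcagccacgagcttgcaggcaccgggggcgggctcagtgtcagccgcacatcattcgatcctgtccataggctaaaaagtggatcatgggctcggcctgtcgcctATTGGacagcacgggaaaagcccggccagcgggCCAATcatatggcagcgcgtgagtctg
Hmgcs1, chr13:119690101-119690350, plus strand: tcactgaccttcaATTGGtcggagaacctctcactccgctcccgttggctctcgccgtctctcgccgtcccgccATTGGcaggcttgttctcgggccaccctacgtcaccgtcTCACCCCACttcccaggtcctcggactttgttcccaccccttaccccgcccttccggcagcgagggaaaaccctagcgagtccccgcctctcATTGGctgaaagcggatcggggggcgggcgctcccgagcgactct
Nsdhl, chrX:72918271-72918520, plus strand: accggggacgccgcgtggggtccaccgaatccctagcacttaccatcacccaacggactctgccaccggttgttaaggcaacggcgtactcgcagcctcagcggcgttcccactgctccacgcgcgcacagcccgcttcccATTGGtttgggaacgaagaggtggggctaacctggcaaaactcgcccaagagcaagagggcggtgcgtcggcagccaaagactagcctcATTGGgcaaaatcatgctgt

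Mvd shows CCAAT once on each strand, and Nsdhl shows it only as its reverse complement ATTGG. In Hmgcs1 the sterol element core starts 137 bases before the RefSeq start that ends the window. CCAAT was found in 16 of the 20 list windows, and in 33.8% of all 32851 RefSeq windows of that length. TCACNCCAC was found in 1 of the 20, and in 1.05% of all windows. The motifs do not overlap each other in these windows. These are matches of letters and were not tested as binding sites.

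Most genes of cholesterol synthesis rose in iWAT, and about as many fell in liver as did not. Of the 25 genes on the list, the difference was called above 0 for 20 and below 0 for none, and all 25 values lay above 0, with a median of 2.38. By the authors' deposited tables, 19 rose and none fell in iWAT (median log2 fold change 1.69), and 13 fell and 2 rose in liver (median -0.60). For 12 of the genes the opposite changes passed the authors' threshold in both tissues. The plot of the pathway in reaction order shows the iWAT value above the liver value for each gene plotted.

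**Figure D2:**
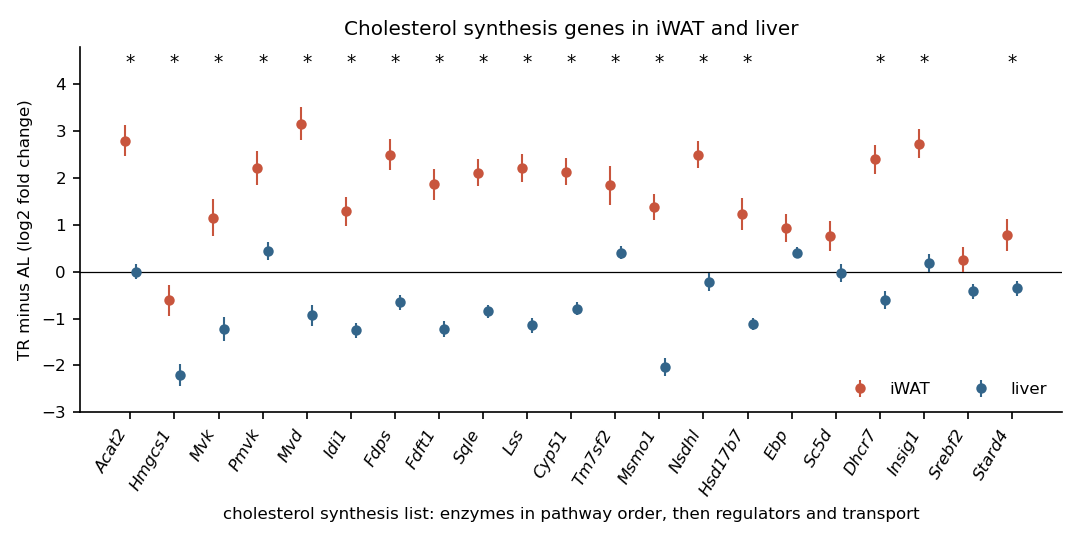
Log2 fold change of TR over AL in iWAT (red) and liver (blue) for 21 of the cholesterol synthesis genes, with bars of 1 SE. Stars mark the 18 of these genes whose difference between tissues was called. Enzymes stand in the order of the pathway, followed by regulators and a transport gene.

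Mvd, the mevalonate diphosphate decarboxylase, had the largest difference of the list (ENSMUSG00000006517, GRCm38 chromosome 8 from 122433601 to 122443422). Its level went from 9.19 CPM in AL to 82.3 CPM in TR in iWAT, and from 45.3 to 23.8 CPM in liver. The log2 fold changes in the authors' deposited tables were 3.16 (SE 0.35) in iWAT and -0.93 (SE 0.22) in liver. The difference was 4.09 ± 0.41 (SE; adjusted p = 1.5e-19), a 17.1-fold difference in response. The iWAT level was below the liver level in AL mice and above it in TR mice.

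Msmo1, a sterol C4-methyl oxidase, had the smallest adjusted p of all genes tested (ENSMUSG00000031604, GRCm38 chromosome 8 from 64718139 to 64733792). Its level went from 39.0 to 101 CPM in iWAT and from 491 to 121 CPM in liver. The difference was 3.40 ± 0.34 (SE; adjusted p = 5.6e-20), and the authors' deposited tables give log2 fold changes of 1.38 for iWAT and -2.02 for liver. The levels of the tissues lay closer to each other in TR than in AL mice. Lss, which closes squalene epoxide into lanosterol, went from 31.3 to 146 CPM in iWAT and from 201 to 91.2 CPM in liver, a difference of 3.36 ± 0.34 (adjusted p = 2.0e-19).

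Other enzymes of the middle and late pathway did the same. Fdps, which makes farnesyl diphosphate, had a difference of 3.16 ± 0.38, and Fdft1, the squalene synthase, 3.09 ± 0.37. Sqle, the squalene epoxidase, had 2.96 ± 0.32, and Dhcr7, the 7-dehydrocholesterol reductase, 3.002 ± 0.37. All 4 rose in iWAT and fell in liver in the authors' deposited tables. An uncharacterised gene outside the lists, 2010003K11Rik, was among the 10 largest opposite changes of genes that reach a log2 mean CPM of 2 in both tissues, with a difference of 3.37 ± 0.41.

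Hmgcs1 and Insig1 each passed the authors' threshold in 1 tissue. Hmgcs1, which makes HMG-CoA in the cytosol, did not pass the authors' threshold in iWAT. Its log2 fold changes in the authors' deposited tables were -0.61 (FDR 0.26) in iWAT and -2.21 (FDR 1.7e-19) in liver, and the difference was 1.59 ± 0.41. Insig1, which holds SREBPs in the endoplasmic reticulum, rose by 2.74 in iWAT and had 0.19 (FDR 0.54) in liver in the authors' deposited tables.

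Genes of the list without a called difference included Srebf2, Sc5d and Ebp. Srebf2, which encodes SREBP2 itself, had a difference of 0.67 ± 0.31 (adjusted p = 0.19). Ebp, a sterol isomerase, rose in both tissues, and its difference was 0.52 ± 0.32 (adjusted p = 0.37).

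Most genes of fatty acid synthesis rose in both tissues, and some rose further in iWAT. Of 23 genes, 11 were called above 0 and 1 below, with a median of 1.17. Within iWAT, 17 rose and none fell (median 2.05), while in liver 18 rose and 3 fell (median 0.89), in the authors' deposited tables. Slc25a1, the mitochondrial citrate exporter, went from 249.7 to 2688 CPM in iWAT and from 148 to 164 CPM in liver, a difference of 3.28 ± 0.36 (adjusted p = 4.8e-16). Acss2, which makes acetyl-CoA from acetate, had 3.07 ± 0.37. Elovl6, an elongase of saturated fatty acids, rose in both tissues and had 2.44 ± 0.51, and Acly, the ATP citrate lyase, 1.72 ± 0.42.

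For several central genes of fatty acid synthesis no difference was called. Scd1, the stearoyl-CoA desaturase, went from 18491 to 60592 CPM in iWAT and from 2716 to 9873 CPM in liver. Its difference was -0.15, with a 95% interval from -0.88 to 0.58. Fasn, the fatty acid synthase, had a difference of 0.74 (95% interval -0.26 to 1.74), and Thrsp, a lipogenic nuclear protein, -0.27 (-1.34 to 0.79). Mlxipl, which encodes the glucose-sensing factor ChREBP, had -0.04 (-0.76 to 0.69). Srebf1, which encodes SREBP1, had -1.06 (-1.95 to -0.16), with adjusted p = 0.15. Scd1, Fasn and Thrsp rose in both tissues in the authors' deposited tables, while Mlxipl and Srebf1 passed only in liver.

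Pnpla3 and Elovl3 stood at the ends of the fatty acid list. Pnpla3, a lipase-family gene that follows lipogenic feeding, went from 599 to 971 CPM in iWAT and from 0.943 to 23.0 CPM in liver (ENSMUSG00000041653, GRCm38 chromosome 15 from 84167837 to 84187236). Its difference was -3.91 ± 0.44 (adjusted p = 4.8e-16). The gene was high in iWAT on either diet, and its change was a rise in liver from a low level. Elovl3, an elongase of brown fat, skin and male liver, went from 1.54 to 31.7 CPM in iWAT and from 80.1 to 26.9 CPM in liver (ENSMUSG00000038754, GRCm38 chromosome 19 from 46131897 to 46135694). Its difference of 5.94 ± 1.09 (adjusted p = 7.1e-06) was the largest of all genes tested, and its error was also large. In liver, the male-biased pheromone carrier Mup7, named after its value was seen, had a log2 fold change of -4.95 in the authors' deposited table. The part of sex-biased expression in the Elovl3 result was not tested.

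**Figure D3:**
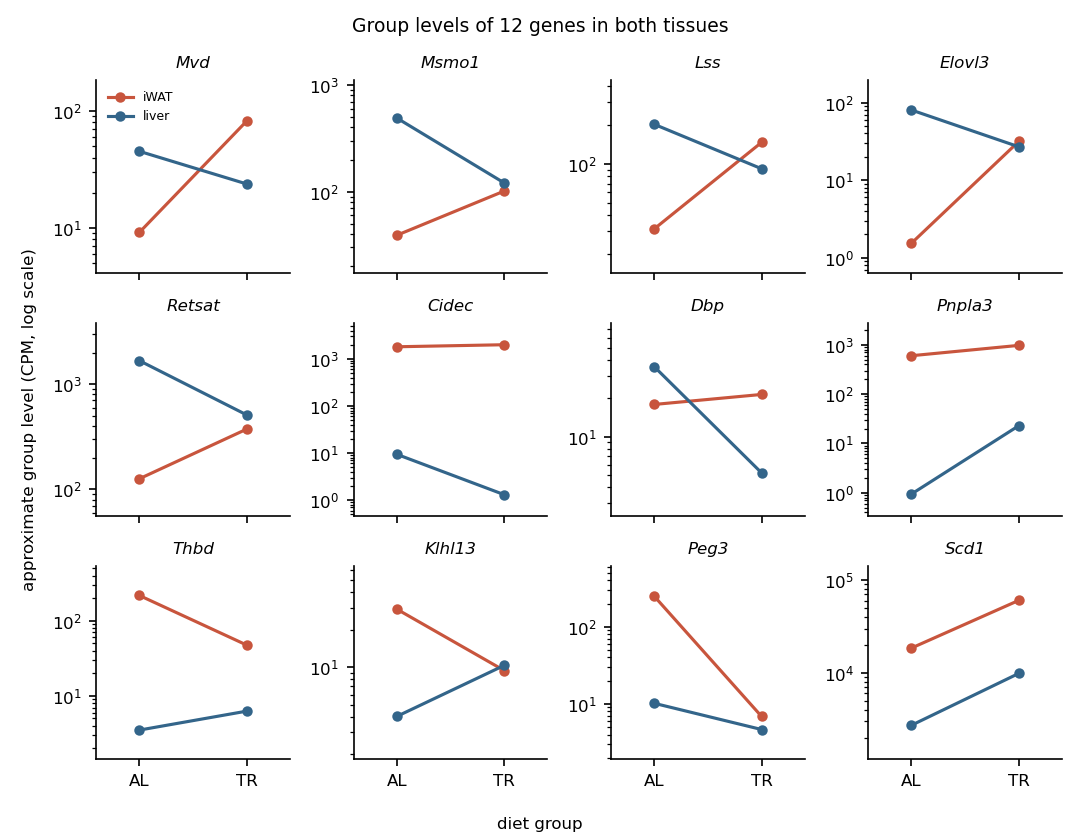
Approximate group levels (CPM, log axis that differs between panels) of 12 genes in AL and TR mice, iWAT in red and liver in blue. Lines cross or close up for Mvd, Msmo1, Lss, Elovl3, Retsat, Dbp, Pnpla3, Thbd, Klhl13 and Peg3. They spread apart for Cidec and run side by side for Scd1.

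Of 24 glycolysis genes, 14 rose in iWAT and 6 in liver in the authors' deposited tables. The difference was called above 0 for 10 of them and below 0 for 1, with a median of 1.10. Ldha, the lactate dehydrogenase A subunit, rose by 1.48 in iWAT and had -0.61 in liver in the authors' deposited tables, a difference of 2.09 ± 0.31. Aldoa and Pkm, the aldolase and pyruvate kinase of most tissues, had differences of 1.68 ± 0.31 and 1.71 ± 0.31. The 1 gene below 0 was Slc2a4, the insulin-responsive glucose transporter, named after its value was seen, whose log2 fold changes were 1.30 in iWAT and 4.19 in liver in the authors' deposited tables. Where both tables had to reach a log2 mean CPM of 2, the count below 0 was 0. Slc2a5, the fructose transporter, belongs to no list and went from 7.79 to 94.5 CPM in iWAT and from 4.84 to 4.06 CPM in liver, a difference of 3.85 ± 0.71 (adjusted p = 7.7e-06).

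Of 18 genes of the pyruvate dehydrogenase switch and of NADPH supply, 11 were called above 0 and none below (median 1.27). Me1, the malic enzyme that makes NADPH, had a difference of 2.49 ± 0.32, Mpc1, a subunit of the mitochondrial pyruvate carrier, 2.12 ± 0.30, and Tkt, the transketolase, 2.15 ± 0.37. Me1 and Mpc1 rose in iWAT and did not pass the authors' threshold in liver. Pdk4, a kinase that switches pyruvate dehydrogenase off, had a difference of the other sign, -1.41 ± 0.53, which was not called (adjusted p = 0.078). Of 17 genes of glucose output and glycogen, 5 were called above 0 and 1 below (median 0.55). The count below 0 was 0 with a correlation of -0.3, and also where both tables had to reach a log2 mean CPM of 2. Ppp1r3b, a glycogen-targeting phosphatase subunit, had a difference of 2.81 ± 0.52. Gys2, the liver-type glycogen synthase, rose in both tissues and had 1.80 ± 0.38, and Pcx, the pyruvate carboxylase, 2.32 ± 0.37. Pck1, the gluconeogenic PEP carboxykinase, fell in iWAT, and its difference of -0.87 ± 0.33 was not called (adjusted p = 0.089).

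Part of the fatty acid oxidation genes rose in iWAT, and part fell in liver. Of 36 genes of oxidation and PPARalpha targets, 18 were called above 0 and none below, with a median of 1.25. Of these 36, 16 rose and 1 fell in iWAT, and 14 fell and 3 rose in liver, in the authors' deposited tables. Hadhb and Hadha encode the 2 subunits of the mitochondrial trifunctional protein. Hadhb went from 289 to 965 CPM in iWAT and from 355 to 239 CPM in liver, a difference of 2.31 ± 0.29 (adjusted p = 2.2e-12), and Hadha had 2.02 ± 0.30. Acadvl, which starts the oxidation of long-chain acyl-CoA, had 1.86 ± 0.30. Fgf21, a fasting hormone of liver that adipocytes also make, had levels of at most 2.83 CPM in any group and a difference of 2.96 ± 0.75 (adjusted p = 0.0030).

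Cpt1a, the liver form of the carnitine acyltransferase that admits fatty acids to mitochondria, had no called difference. Its difference was -0.15 (95% interval -0.85 to 0.56). Among 8 ketone body enzymes, 1 was called above 0, Acat1, the mitochondrial thiolase, with 1.03 ± 0.31, and the median was 0.00. With a correlation of -0.3 between the tissues of a mouse its adjusted p was 0.0533. Of 24 genes of branched-chain amino acid breakdown, 4 were called above 0 (median 0.49), Acat1 among them, and the count ran from 2 to 7 with correlations of -0.3 and 0.3. Bckdk, the kinase that inhibits the branched-chain dehydrogenase, had 1.20 ± 0.33.

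Many mitochondrial genes rose in iWAT, and fewer rose in liver. Of 22 TCA cycle genes, 14 were called above 0 and none below (median 1.05), among them Cs, the citrate synthase, with 1.31 ± 0.29. Of 77 respiratory chain genes, 36 were called above 0 and none below (median 0.93), and 75 values lay above 0. The authors' deposited tables have 64 of the 77 rising in iWAT (median 1.13) and 17 rising in liver (median 0.24). Cycs, cytochrome c, had a difference of 1.66 ± 0.31, Uqcrfs1, the Rieske protein of complex III, 1.36 ± 0.32, and Atp5b, the catalytic subunit of ATP synthase, 1.22 ± 0.25. Across the settings tried as alternatives the count of called respiratory genes ran from 23 to 46.

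Ribosomal genes of the mitochondrion and of the cytosol were listed apart. Of 78 mitochondrial ribosomal genes, 12 were called above 0 (median 0.59) and none below, a count that ran from 4 to 22 across the settings tried as alternatives. Of 81 cytosolic ribosomal genes, none was called in either direction by the approximate test (5 had an unadjusted p under 0.05), and the median was -0.05. Of these 81, 12 rose in liver and none passed in iWAT, in the authors' deposited tables. Rpl36, a protein of the large subunit, had the smallest adjusted p of the cytosolic list, 0.098, with a difference of -1.44 ± 0.57.

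Most proteasome genes fell in liver, and their iWAT values lay mainly above 0. Of 39 subunits and partners, 15 were called above 0 and none below, with a median of 0.78. In liver, 23 fell and 1 rose (median -0.36), while in iWAT 5 rose and none fell (median 0.47), in the authors' deposited tables. Psma5, a subunit of the 20S core, went from 94.97 to 52.9 CPM in liver and from 78.9 to 104 CPM in iWAT, a difference of 1.24 ± 0.29 (adjusted p = 8.7e-04). Psma6, another core subunit, had 1.399 ± 0.32, and Psmc4, an ATPase of the regulatory cap, 1.21 ± 0.30. Each of these values is small beside the cholesterol differences, but 37 of the 39 lay above 0.

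Chaperones and lysosomal genes were listed apart from the proteasome. Of 37 chaperones and genes of the unfolded protein response, 3 were called above 0 (8.11%, beside 4.16% of all genes), with a median of 0.39. The count ran from 1 to 6 with correlations of -0.3 and 0.3. The 3 called were Calr, a lectin chaperone of the endoplasmic reticulum, with 1.10 ± 0.30, Hspe1, the mitochondrial co-chaperonin, with 1.07 ± 0.34, and Herpud1, a gene of protein disposal, with 0.93 ± 0.31. With a correlation of -0.3 between tissues, the adjusted p was 0.0679 for Hspe1 and 0.108 for Herpud1. Hspa5, the chaperone BiP, had 0.34 (95% interval -0.42 to 1.10). Of 30 autophagy and lysosome genes, 2 were called above 0 (6.67%, beside 4.16% of all genes) and 1 below (3.33%, beside 3.65%). Their median was 0.19, and both shares lay near those of all genes. Ctsd, the lysosomal protease cathepsin D, had 1.61 ± 0.32, and Atg7, an enzyme of autophagosome formation, 0.98 ± 0.30 (adjusted p = 0.0594 with the correlation of -0.3). Atp6v0d2, a subunit of the lysosomal proton pump, fell in iWAT from 6.10 to 0.549 CPM and rose in liver from 2.68 to 7.97 CPM. Its difference of -5.05 ± 0.86 (adjusted p = 8.8e-07) was the lowest of all genes tested.

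Of 30 genes of glutathione and NRF2 targets, 4 were called above 0 (median 0.52), and 2 to 9 with correlations of -0.3 and 0.3. Gstm4, a glutathione transferase, had 1.61 ± 0.35, Srxn1, which repairs peroxiredoxins, 1.20 ± 0.31, and Gpx4, the lipid peroxide reductase, 1.08 ± 0.34 (adjusted p = 0.0624 with the correlation of -0.3). Of 31 interferon and antigen presentation genes, 4 were called above 0 (median 0.22). The interferon-induced genes Ifi27 and Ifit3 had 1.44 ± 0.34 and 1.26 ± 0.34. None of 19 cell cycle genes was called by the approximate test (median 0.15), and 4 had an unadjusted p under 0.05.

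Triglyceride assembly and lipid droplets were mixed. Of 15 assembly genes, 4 were called above 0 (median 0.60). Gpd1, which makes glycerol 3-phosphate, rose by 1.43 in iWAT and had -0.86 in liver in the authors' deposited tables, a difference of 2.29 ± 0.34. Agpat2 and Dgat1, acyltransferases of triglyceride synthesis, had 2.14 ± 0.36 and 1.69 ± 0.36. Of 23 lipid droplet and lipolysis genes, 2 were called above 0 and 4 below (median 0.04), and 4 above with a correlation of 0.3. Cidec, a protein of adipocyte droplet fusion, went from 9.40 to 1.30 CPM in liver and from 1811 to 2001 CPM in iWAT, a difference of 2.995 ± 0.41 (adjusted p = 1.0e-10). Plin2, a droplet coat protein, had 1.62 ± 0.33.

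Inhibitors of lipases were among the droplet genes below 0. G0s2, which inhibits the lipase ATGL, went from 35.2 to 105 CPM in liver and from 243 to 213 CPM in iWAT, a difference of -1.76 ± 0.45 (adjusted p = 0.0039). Angptl4, which inhibits lipoprotein lipase, had -1.75 ± 0.43. Plin5, a droplet protein of oxidative tissues, had -1.23 ± 0.42 (adjusted p = 0.044, and 0.11 with the correlation of -0.3). Lpl and Cd36, which take up fatty acids, had differences of 0.27 (95% interval -0.29 to 0.84) and 0.04 (-0.60 to 0.68). Retsat, a retinol saturase induced in adipocyte differentiation, belongs to no list and went from 126 to 375 CPM in iWAT and from 1674 to 509.6 CPM in liver, a difference of 3.29 ± 0.37.

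Some extracellular matrix genes fell in iWAT and others rose in liver, so that the differences ran below 0. Of 36 genes, 17 were called below 0 and none above, and all 36 values lay below 0, with a median of -1.05. In iWAT, 10 fell and none rose (median -0.72), and in liver 8 rose and none fell (median 0.23), in the authors' deposited tables. Mmp14, a membrane-bound matrix protease, went from 111 to 33.7 CPM in iWAT and from 39.4 to 43.6 CPM in liver, a difference of -1.87 ± 0.33 (adjusted p = 3.4e-06). Col5a2, a fibril collagen chain, fell in iWAT and rose in liver, with a difference of -1.89 ± 0.42. Thbs2, a matricellular protein, had -1.85 ± 0.44. Col1a1, the main collagen I chain, did not pass in iWAT (251 to 178 CPM) and rose in liver from 1.15 to 3.34 CPM, a difference of -2.03 ± 0.51. The count of called matrix genes ran from 10 to 19 across the settings tried as alternatives.

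Several of the lowest differences outside the lists had the same form. Thbd, the endothelial thrombin receptor thrombomodulin, fell from 218 to 47.4 CPM in iWAT and rose from 3.50 to 6.27 CPM in liver, a difference of -3.04 ± 0.44 (adjusted p = 2.6e-09). Palld, an actin-bundling protein, went from 112 to 29.1 CPM in iWAT and from 104 to 172 CPM in liver, a difference of -2.68 ± 0.35. Klhl13, an adaptor of a ubiquitin ligase, had -2.99 ± 0.41, Abcb1a, a drug efflux pump, -2.51 ± 0.45, and Prg4, a secreted lubricating proteoglycan, -2.46 ± 0.67. These genes fell in iWAT and rose in liver. Slc5a3, a transporter of myo-inositol, and Adamtsl2, a matrix-associated protein, fell in iWAT without passing in liver, with -2.81 ± 0.39 and -3.03 ± 0.65. Pcp4l1 did not pass in iWAT and rose in liver, with -2.57 ± 0.51.

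On the list of adipocyte identity and adipokine genes, 5 of 17 were called below 0 and 1, Cidec, above, with a median of -0.39. In the authors' deposited tables, 2 of the 17 rose and 6 fell in iWAT, and 5 rose and 6 fell in liver. The list also holds imprinted genes, the IGF carrier Igfbp3 (called below 0) and Slc2a4. Slc2a4 was called below 0 with log2 fold changes above 0 in both tissues. Where both tables had to reach a log2 mean CPM of 2, 2 were called below 0, and with a correlation of 0.3, 2 above. Peg3, an imprinted zinc finger gene, fell in both tissues: from 250.4 to 6.86 CPM in iWAT and from 10.2 to 4.65 CPM in liver (ENSMUSG00000002265, GRCm38 chromosome 7 from 6703892 to 6730431). Its difference was -4.06 ± 0.44 (adjusted p = 1.6e-16). Npr3, the clearance receptor of natriuretic peptides, fell from 718 to 156 CPM in iWAT and had a difference of -2.73 ± 0.43. Mest, another imprinted gene, named after its value was seen, had a log2 fold change of -4.33 in iWAT and -0.09 in liver in the authors' deposited tables. Several adipocyte genes had no liver row and so no difference: in the authors' deposited iWAT table Cidea, a droplet gene of thermogenic fat, had 4.05 (FDR 1.5e-18), Ucp1, the uncoupling protein, 2.88 (FDR 0.010), Lep, leptin, -0.96 (FDR 0.030) and Adipoq, adiponectin, 0.09 (FDR 0.88). Of 14 thermogenic genes in both tables, 2 (Elovl3 and Letmd1) were called above 0 and 2 below (Slc6a8, a creatine transporter, and Prdm16, a brown fat regulator named after its value was seen), with a median of -0.06. The adjusted p of Letmd1 was 0.0613 and that of Slc6a8 0.0533 with a correlation of -0.3 between the tissues of a mouse.

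Insulin and IGF signalling genes leaned below 0. Of 24 genes, 5 were called below 0 and none above, with a median of -0.52, and the count ran from 4 to 9 across the settings tried as alternatives. Irs2, the insulin receptor substrate of liver and fat, fell in iWAT from 26.2 to 12.6 CPM and rose in liver from 5.15 to 8.96 CPM, a difference of -1.85 ± 0.42 (adjusted p = 5.6e-04). Igfbp3, an IGF carrier, fell in iWAT and rose in liver, with -1.62 ± 0.35. Grb10, an adaptor that dampens insulin signalling, had -1.62 ± 0.37 from a rise in liver. Igf1 had -0.57 (95% interval -1.28 to 0.13).

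A few clock genes had a called difference. Of 18 genes, 4 were called above 0 and none below, with a median of 0.15. Where both tables had to reach a log2 mean CPM of 2, 2 were called above 0, and with a correlation of 0.3, 2 were also called below. Dbp, an output factor of the clock, went from 35.7 to 5.16 CPM in liver and from 17.9 to 21.5 CPM in iWAT, a difference of 3.05 ± 0.50 (adjusted p = 2.9e-07). Bhlhe41 and Bhlhe40, repressors of the clock, had 2.62 ± 0.53 and 1.71 ± 0.41, and Ciart, another repressor, 1.98 ± 0.55. The fall of Dbp, Bhlhe41 and Ciart was in liver, and the rise of Bhlhe40 was in iWAT.

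Several clock genes moved the same way in both tissues. Nr1d1, the repressor REV-ERBalpha, fell from 96.6 to 24.0 CPM in iWAT and from 43.6 to 6.84 CPM in liver, with a difference of 0.66 (95% interval -0.22 to 1.54). Nr1d2, its paralog, also fell in both, with -0.05 (-0.80 to 0.70). Per2 rose in both, with -0.12 (-0.78 to 0.55), and Cry1 rose in both, with -0.62 (-1.35 to 0.11). Arntl, which encodes the activator BMAL1, had -1.12 ± 0.43 (adjusted p = 0.094), Per1 -0.68 ± 0.42 and Per3 0.06 ± 0.34.

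**Figure D4:**
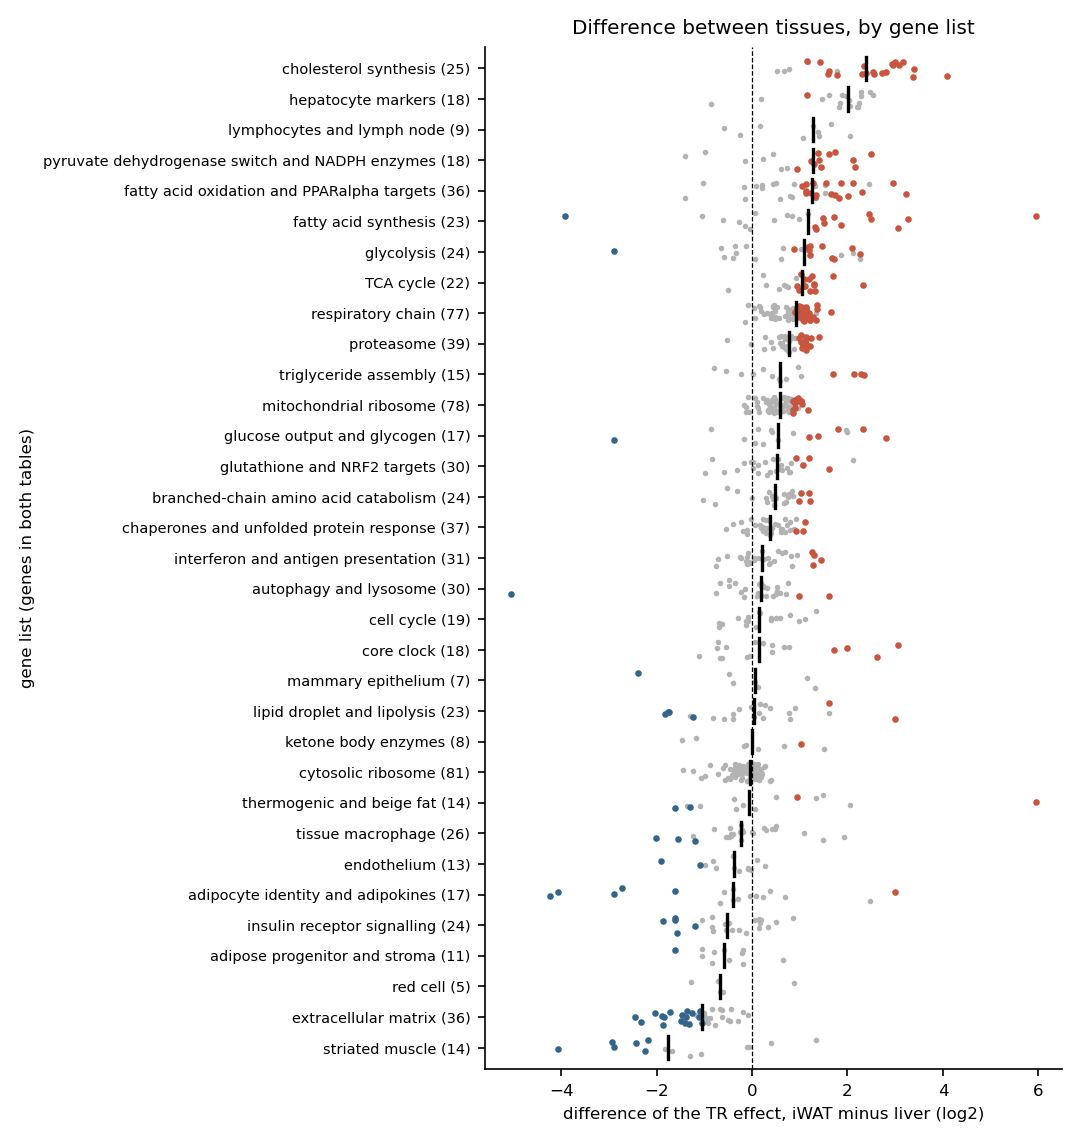
Difference of the TR effect, iWAT minus liver, for the genes of 33 lists, 1 point per gene (red called above 0, blue called below 0, grey not called). Black ticks are list medians and the dashed line is the median of all genes, -0.01. Cholesterol synthesis has a median of 2.38 and extracellular matrix of -1.05.

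Marker lists of other cell types were checked beside these results. Of 26 macrophage genes, 3 were called below 0 (median -0.23). Spp1, osteopontin, had -2.02 ± 0.60, Cd163, a haemoglobin scavenger receptor, -1.55 ± 0.52, and Mrc1, the mannose receptor, -1.20 ± 0.41. Of 13 endothelial genes, 2 were called below 0 (median -0.38): Lyve1, with -1.91 ± 0.46, and Vwf, with -1.09 ± 0.36. With the correlation of -0.3 the adjusted p became 0.105 for Cd163, 0.119 for Mrc1 and 0.114 for Vwf. Of 11 progenitor and stroma genes 1, Cd34, was called below 0 (median -0.59), and of 7 mammary epithelium genes (median 0.05) 1, Krt19, a keratin at most at 1.84 CPM in any group (adjusted p = 0.0613 with the correlation of -0.3). No gene was called by the approximate test among 9 of lymphocytes (median 1.28) or 5 of red cells (median -0.67), where 1 and 2 had an unadjusted p under 0.05. With a correlation of 0.3, the calls below 0 were 4 for macrophages, 4 for endothelium and 2 for progenitors and stroma. The part of these cells in the matrix and endothelial results was not tested.

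The genes kept apart for their liver level had mostly positive values in iWAT. Of the 459, 433 had a log2 fold change above 0 in iWAT in the authors' deposited table, with a median of 1.70, and 3 rose past the threshold. Their median SE in iWAT was 1.37. No difference was called among them, and 23 had an unadjusted p under 0.05. The limit of 16 times fell between Reep6 (16.0, just inside the genes retained) and Sardh (16.2).

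Hepatocyte markers of this class had higher values in TR than in AL iWAT, and none passed the authors' threshold. The 15 hepatocyte markers of this class stood in iWAT at 1.02% of their liver level in AL mice and at 4.25% in TR mice (medians). Their summed iWAT level went from 1186 to 7484 CPM, and their iWAT log2 fold changes in the authors' deposited table ran from 1.42 to 2.92. Alb, albumin, had 2.92 with an SE of 1.13. Of all 18 hepatocyte markers (median 2.00) 1 was called above 0 (5.56%, beside 4.16% of all genes). It was Cyp2e1, which rose in iWAT in the authors' deposited table, with 1.15 ± 0.35 (adjusted p = 0.0613 with the correlation of -0.3). When these shares of the liver level were taken from the iWAT levels, an alternative chosen after the data were seen, the median of the cholesterol list was 2.48 over 24 genes, that of the matrix list -1.07, and the differences of Msmo1 and Mvd were 3.52 and 4.15. Genes left with no level above 0 in a group dropped out. Over the 11903 that remained, with errors unchanged, 501 differences were then called above 0 and 612 below.

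**Figure D5:**
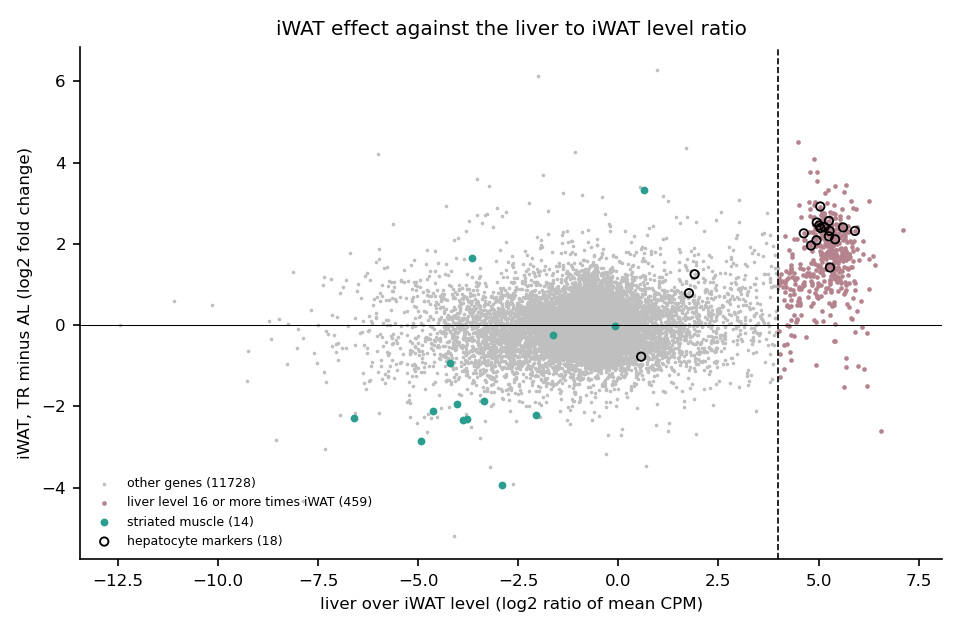
Log2 fold change in iWAT (vertical axis) against the log2 ratio of liver to iWAT level (horizontal axis), 1 point per gene. To the right of the dashed line at 4 (a ratio of 16) lie the 459 genes kept apart, 433 of them above 0. Circles are the 18 hepatocyte markers and green points the 14 striated muscle genes.

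Many striated muscle genes fell in iWAT. Of 69 genes on the muscle list, 32 fell and 2 rose in the authors' deposited iWAT table. Their log2 fold changes ran from -6.06 to 3.33, with a median of -2.81. Their summed level, in which abundant genes weigh most, went from 15965 to 9487 CPM. Of the 14 in both tables, 6 were called below 0 and none above (median -1.76), with Tpm2 and Tpm1, tropomyosins, at -2.43 ± 0.65 and -2.25 ± 0.62 and Myom1, a protein of the sarcomere's M-band, at -2.94 ± 0.79. Their part in other iWAT results was not tested.

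The same difference was taken for CR mice and is given beside that for TR. The CR and TR comparisons share the AL libraries, so like values in both are no independent support. For CR, 371 of 12012 genes were called above 0 (3.09%) and 438 below (3.65%). Outside the classes kept apart, CR had 367 above 0 and 306 below among 11593 genes, and TR had 508 and 439 among 11728. The median difference was 2.30 in CR beside 2.38 in TR for cholesterol synthesis, with 19 of 24 and 20 of 25 genes called above 0. It was 0.99 beside 1.25 for fatty acid oxidation, 0.73 beside 0.93 for the respiratory chain, 0.61 beside 0.78 for the proteasome, and -0.93 beside -1.05 for the matrix. The called matrix genes were 7 in CR and 17 in TR. For hepatocyte markers the median was -4.09 in CR beside 2.00 in TR, and for striated muscle 0.80 beside -1.76. Whether any list differed between the diets was not tested. For single genes, Elovl3 had 3.64 in CR beside 5.94, Pnpla3 -4.10 beside -3.91, and Mvd 3.52 beside 4.09. In liver, Elovl3 rose in CR (log2 fold change 0.91, FDR 0.012) and fell in TR (-1.58, FDR 0.0028), in the authors' deposited tables.

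Transcript tables from the same libraries were read in the same way. The difference was called for 487 of 24191 transcripts (2.01%), 340 above 0 and 147 below. Of the 101 named genes with a called difference, 100 had transcripts in both tables. For 77 of these at least 1 transcript was called in the gene's direction, and for none was a transcript called in the other direction. These genes were chosen for a called difference in the same libraries, so a shared direction was largely set in advance. Transcripts of a gene could differ: Pcx-202 had a difference of 4.88 and was called. Pcx-201 had 0.96 and was not called by the approximate test (adjusted p = 0.22). All 3 transcripts of Msmo1 and 4 of 5 of Lss were called.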

How the data were processed

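Bulk RNA of flash-frozen tissue was extracted with Trizol and made into Illumina TruSeq libraries, per the labels' protocols. The submitters' processing notes name bcl2fastq 2.20, STAR 2.5.3a, RSEM and the build GRCm38.p5. The sources used here give no RSEM version, and no version, filter, scaling or annotation for the authors' comparisons. Per the file headers, the authors deposited edgeR comparisons of 2 groups. The log2 values are the authors' log2 fold change and log2 mean CPM. The score values are the authors' likelihood-ratio statistics, and the p-value columns are the authors' p-value and FDR. Recomputed from the statistic (chi-square, 1 degree of freedom), p differed from the deposited p by at most 5.0e-06.

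Each SE is the absolute log2 fold change divided by the root of that statistic. This statistic takes the dispersion as known, so with 6 libraries per group the errors may be somewhat small. The difference was divided by the combined SE of both tissues and referred to a normal tail, 2-sided, with Benjamini-Hochberg adjustment over 12201 genes, in Python 3.11.15 with scipy 1.17.1. Its arithmetic was tested on simulated fold changes, with the errors taken as given. No correlation between the tissues of a mouse was assumed. A model of diet and tissue needs values per library and was not fitted. Nothing in the labels says more of the replicates than the animal number. Group levels were derived from the log2 mean CPM and log2 fold change, and the AL level derived from the CR and the TR table differed by at most 0.042 log2 units in 90% of genes. Positions came from GENCODE M21, matched by identifier for all 143 named genes.

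Named genes are the 10 highest and 10 lowest called differences outside the classes kept apart (log2 mean CPM of at least 2 in both tissues, predicted genes left out), the 10 largest opposite changes, the 3 smallest adjusted p of each of 33 lists, and genes named whatever their values. Others were chosen after their values were seen, and the text says so or names them because a count was 5 or fewer. Lists share members. Values of some genes are counted in their lists but not reported here by name. The comparison, members and lists were chosen with earlier results of these data known, so counts over a list are descriptions. Alternatives were correlations of 0.3 and -0.3, raised errors, level limits, centring, other limits for the classes kept apart and a minimum size. The alternatives of a ratio of 4 and of iWAT levels less the hepatocyte share were chosen after seeing the data.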

Additional observations from a re-analysis of the deposited data

Results flagged for a closer look

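The response to time-restricted feeding differed between tissues for 508 genes above 0 and 445 below 0 by the approximate test of the difference itself, and the report describes them. The results singled out here are the 10 largest called differences among genes that reach a log2 mean CPM of 2 in both tissues and whose changes passed the authors' threshold in opposite directions. Atp6v0d2, with a difference of -5.05, was under that level limit. Of the 10, 9 rose in iWAT and fell in liver in the authors' deposited tables: Elovl3 (difference 5.94), Mvd (4.09), Msmo1 (3.40), 2010003K11Rik (3.37), Lss (3.36), Retsat (3.29), Fdps (3.16), Fdft1 (3.09) and Dhcr7 (3.002). Of these 9, 6 are enzymes of cholesterol synthesis. Thbd fell in iWAT and rose in liver, with a difference of -3.04. Elovl3 had the largest error, an SE of 1.09. With no values per library, no single sample could be examined as far from the others.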

How the results depend on the processing

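No paired analysis was possible because the tables hold no values per library. For the same reason no library could be left out. In place of a block by mouse, a correlation was assumed between the tissues of a mouse. At 0.3 the calls over all genes were 776 above 0 and 779 below, and 772 and 771 outside the classes kept apart. At -0.3 they were 331 and 255 over all genes, and 331 and 251 outside those classes. Where both tables had to show a log2 mean CPM of 2 or more, the calls below 0 were 283 over all genes, 279 outside the classes and 29 among genes on any list, against 445, 439 and 47. Under an authors' FDR of 0.01, 448 genes rose and 343 fell in iWAT, and 703 rose and 721 fell in liver. The other alternatives for these counts stayed within 1.5 times, among them the raised errors, with 442 and 411. Taking off the hepatocyte share moved the split to 501 above and 612 below, over the 11903 genes that kept a value. Of the 101 named called genes, 13 lost the call under at least 1 alternative, all 13 at the correlation of -0.3, and 10 of the other 42 gained one. Genes removed by a level limit are not counted as lost, and 90 of the 101 remained at a log2 mean CPM of 2. No named gene changed sign, though only centring and the hepatocyte share could alter the difference itself. Of 66 counts of called genes (33 lists, each direction), 30 moved by over 1.5 times under at least 1 alternative. The cholesterol list ran from 19 to 20, chaperones from 1 to 6, and mitochondrial ribosome from 4 to 22. Depth per library is unknown, and the median iWAT error of 0.33 limits what can be called.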

Other observations

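Pdzk1ip1, a small membrane protein, belongs to no list and fell outside the naming rule. It was chosen after its values were seen, for its log2 fold change in iWAT, 6.13, the highest but one outside the classes kept apart. It also rose in liver, with 1.41, both in the authors' deposited tables, and its difference was 4.72 ± 0.94 (SE; adjusted p = 5.0e-05). Fabp3, the heart-type fatty acid binding protein, stood only in the iWAT table, with a log2 fold change of -3.48 (FDR 0.0052) in the authors' deposited table, and Retn, resistin, with 0.81 (FDR 0.046).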
